A study of Mus musculus with 12 samples.

Results

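The interleukin-6 (IL-6) family and the Stat3-Socs3 axis were followed in the mouse heart through 9 genes: the ligands Il6 and Lif, the receptor chains Il6st, Il6ra, Lifr and Osmr, the transcription factor Stat3, its feedback inhibitor Socs3 and the kinase gene Pim1. The genes were chosen by name, and 8 of the 9 had a row among the 13552 genes of the expression table. Il6 was not analysed here. RNA was sequenced from 12 hearts, 3 in each of 4 groups, 9 h after transverse aortic constriction (TAC), which narrows the aorta and raises the load on the left ventricle, or after sham surgery without constriction. Each operation was done in wild-type (WT) mice and in Bcl-xL S14A knock-in (KI) mice. The latter carried alanine in place of serine at codon 14 of Bcl-xL on both alleles, in every cell type, so that no difference between genotypes can be assigned to the cardiomyocyte. All mice were 8- to 10-week-old males on a C57BL/6J background. KI mice had been backcrossed for more than 8 generations after removal of the selection cassette with CMV-Cre, whereas WT mice were bought, and how many founder lines the KI colony came from is not given, so genotype and colony cannot be told apart.

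Cytokines of the IL-6 family bind a receptor chain of their own and then recruit gp130, the shared signal-transducing chain encoded by Il6st. Janus kinases bound to gp130 phosphorylate STAT3, which enters the nucleus and switches on target genes, among them Socs3, whose product binds gp130 and shuts the signal down. In the heart the pathway is known for its part in cardiomyocyte growth and survival and in the acute-phase response to injury. The RNA levels reported here do not measure phosphorylation of STAT3.

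Upstream sequence of Socs3 and Lif is shown because both genes responded to TAC in the 2 genotypes and because theirs were the only upstream windows, among those of the 8 measured members, that held any of the 4 motifs searched. The 250 bases upstream of the RefSeq start on GRCm38.p6 lie at chr11:117969367-117969616 (minus strand) for Socs3 and at chr11:4257318-4257567 (plus strand) for Lif. Both are written 5′ to 3′ in the direction of transcription, and capitals mark the motif found.
Socs3: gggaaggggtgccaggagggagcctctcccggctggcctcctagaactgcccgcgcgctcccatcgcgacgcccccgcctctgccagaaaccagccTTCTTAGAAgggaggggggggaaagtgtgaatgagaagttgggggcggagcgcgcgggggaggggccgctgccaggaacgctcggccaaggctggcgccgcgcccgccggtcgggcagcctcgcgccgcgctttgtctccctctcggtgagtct
Lif: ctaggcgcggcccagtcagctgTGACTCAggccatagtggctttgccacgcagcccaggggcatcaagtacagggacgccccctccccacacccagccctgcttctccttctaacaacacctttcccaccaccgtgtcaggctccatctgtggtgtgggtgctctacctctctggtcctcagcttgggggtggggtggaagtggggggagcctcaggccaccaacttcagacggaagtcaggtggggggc
The Socs3 window held TTCTTAGAA, a match to the STAT-type palindrome TTCNNNGAA, between 154 and 146 bases upstream of the RefSeq start. The Lif window held TGACTCA, a match to the AP-1-type motif TGANTCA, between 228 and 222 bases upstream. Of 32851 mouse promoter windows of this length, 7.02% held TTCNNNGAA and 6.75% held TGANTCA. The stricter STAT palindrome TTCCNGGAA, every match of which is also a match of TTCNNNGAA, was in 0.913% of windows, and the CRE motif TGACGTCA was in 1.55%. Neither was found in the windows of the members. The Socs3 window lies inside the annotated gene span (chr11:117966079-117970047, minus strand), whose 5′ end is farther upstream than the RefSeq start. Bases upstream of that 5′ end were not searched for Socs3. The windows of Osmr and Lifr also lay inside their annotated spans, and the Lif window overlapped the first bases of its span. The motifs read the same on both strands apart from their unspecified bases, so both strands were searched at once.

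Levels are given in RPKM, read counts divided by exon length and by the reads of the library, which can be compared between genes as well as between hearts. Each library held 23650191 to 32455166 reads on genes, and the ranges of the WT TAC and KI TAC groups did not overlap. The 7 cardiomyocyte markers, among them Myh6 and Tnnt2, summed to 12783 to 22936 RPKM in every heart, as the label heart requires. In sham hearts Pim1 was the most abundant member, between 41.4 and 91.4 RPKM. Il6st and Stat3 followed, between 18.0 and 27.5 and between 18.5 and 25.1 RPKM, and their ranges overlapped. Lifr lay between 5.38 and 9.57 RPKM and Socs3 between 3.59 and 5.92 RPKM, again with overlap. Osmr (1.13 to 2.14 RPKM) and Il6ra (0.547 to 1.45 RPKM) were lower and overlapped each other, and Lif was lowest, at 0.0470 to 0.245 RPKM.

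**Figure D1:**
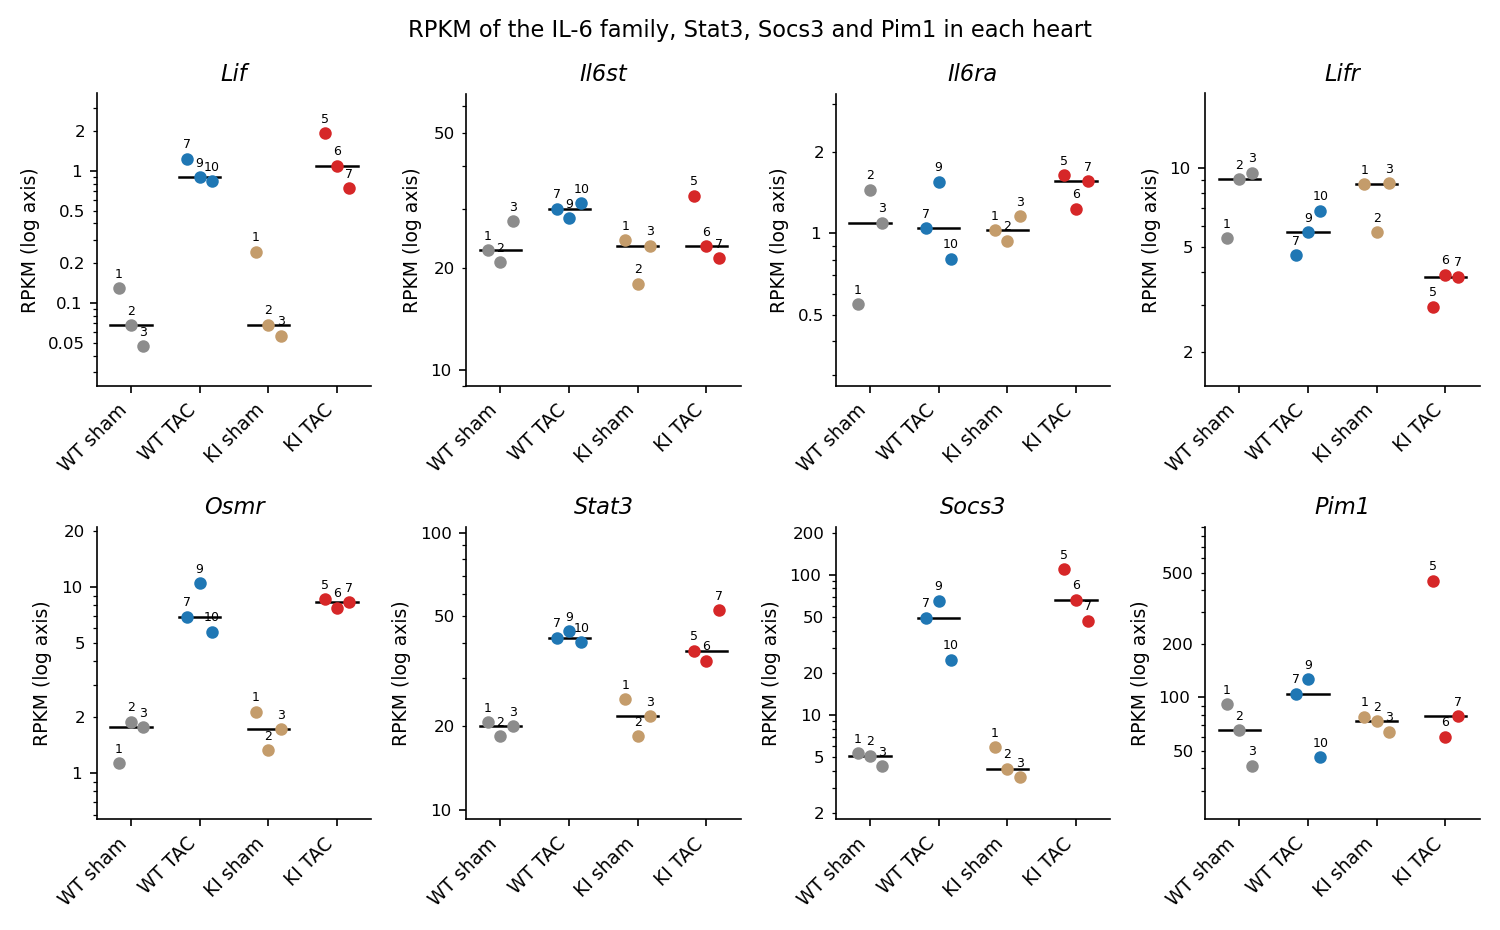
RPKM of the 8 members (log axes, a scale for each panel) in each of the 12 hearts, by group. Points are hearts, marked with their replicate number, and bars are group medians. Lif, Osmr, Stat3 and Socs3 were higher in every TAC heart than in every sham heart of the same genotype, and Pim1 reached 450 RPKM in KI TAC replicate 5.

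In WT hearts, TAC raised the RNA of the ligand Lif, the receptor chain Osmr, the transducer Stat3 and the feedback inhibitor Socs3. The differences were tested with limma on log2(RPKM + 1) in 11240 genes with Benjamini-Hochberg adjustment, and a gene was called at an adjusted p under 0.05. In WT hearts 4 of the 8 members were called higher and 0 lower, where 6.96% of all genes were called higher, 4.60% lower and 11.6% in either direction. In KI hearts the same 4 genes were called higher and Lifr was called lower, where 8.57% of all genes were called higher, 14.7% lower and 23.3% in either direction. Lif passed the filter on low values only through TAC hearts, so its call could only be an increase, and without it 3 of 7 members were higher in each genotype. With median-ratio scaling between libraries the share of called genes that were higher moved from 36.8% to 51.5% in KI hearts and from 60.2% to 51.1% in WT hearts, and with quantile normalization to 48.3% and 48.1%. The calls of the members were unaffected by either scaling. In whole-heart RNA, fewer cells of a type and less RNA per cell cannot be told apart, and neither can more cells and more RNA.

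**Figure D2:**
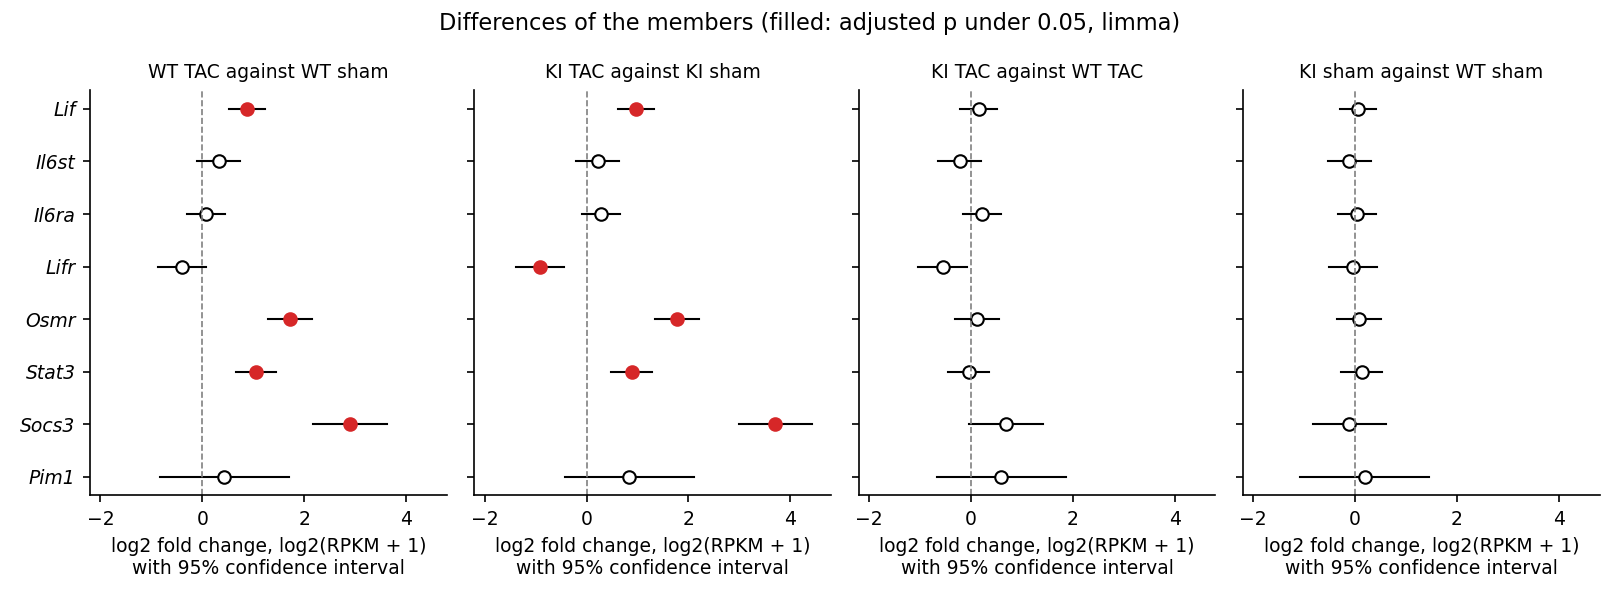
Log2 fold changes on the log2(RPKM + 1) scale (x axis) of the 8 members in 4 comparisons, with 95% confidence intervals from limma. Filled points had an adjusted p under 0.05. The increases of Lif, Osmr, Stat3 and Socs3 appear in both genotypes, the decrease of Lifr passed the threshold in KI hearts, and no member passed it between the genotypes.

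Socs3 (suppressor of cytokine signaling 3, ENSMUSG00000053113, chr11:117966079-117970047, GRCm38, minus strand) had the largest change of the members in both genotypes on the log2(RPKM + 1) scale, whereas as a ratio of group means Lif was ahead of it in WT hearts (12.1 against 9.43). It stood at 5.36, 5.13 and 4.32 RPKM in WT hearts after sham and at 49.5, 65.4 and 24.8 RPKM after TAC. In KI sham hearts it stood at 5.92, 4.14 and 3.59 RPKM and in KI TAC hearts at 110, 66.5 and 47.2 RPKM. Every TAC heart was above every sham heart, with WT TAC replicate 10 lowest and KI TAC replicate 5 highest among the TAC hearts. The ratio of group means was 9.43 in WT and 16.4 in KI hearts. The log2 fold change was 2.90 ± 0.34 (SE, adjusted p = 0.000241) in WT and 3.70 ± 0.34 (adjusted p = 1.87e-05) in KI hearts. Over both genotypes the mean difference was 3.30 on the log2 scale, with an exact two-sided permutation p of 0.005, the smallest that 400 arrangements within genotypes allow.

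Stat3, which encodes the transcription factor activated by gp130 (ENSMUSG00000004040, chr11:100885098-100939540, minus strand), roughly doubled from a level already high in sham hearts. It was 20.7, 18.5 and 20.03 RPKM in the WT hearts after sham and 41.7, 44.1 and 40.2 RPKM after TAC. In KI hearts it was 25.1, 18.5 and 21.8 RPKM after sham and 37.4, 34.5 and 52.4 RPKM after TAC. The groups did not overlap in either genotype, and the spread was larger in KI TAC hearts (SD 9.59) than in WT TAC hearts (SD 1.97). The log2 fold change was 1.05 ± 0.19 (adjusted p = 0.00340) in WT and 0.89 ± 0.19 (adjusted p = 0.00436) in KI hearts. Stat3 shares 72 bases with Stat5a on the opposite strand, and Stat5a lay at 8.74 to 11.4 RPKM in sham and at 2.30 to 7.20 RPKM in TAC hearts, away from the direction of Stat3.

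Osmr, the receptor chain that pairs with gp130 for oncostatin M (ENSMUSG00000022146, chr15:6813577-6874969, minus strand), rose in WT hearts from 1.13, 1.90 and 1.77 RPKM to 6.95, 10.5 and 5.77 RPKM. In KI hearts it went from 2.14, 1.33 and 1.72 RPKM to 8.63, 7.78 and 8.28 RPKM. No TAC heart overlapped a sham heart, and the KI TAC hearts were closer together (SD 0.428) than the WT TAC hearts (SD 2.48). The log2 fold changes were 1.73 ± 0.20 (adjusted p = 0.000241) and 1.77 ± 0.20 (adjusted p = 0.000110), or 4.85 and 4.75 as ratios of group means. Among the receptor chains that are members, Osmr was the only 1 called higher, in either genotype.

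Lifr, the receptor chain for leukemia inhibitory factor (ENSMUSG00000054263, chr15:7090614-7197489, plus strand), is the neighbour of Osmr, 215644 bases away, and was lower after TAC in KI hearts. It was 8.64, 5.69 and 8.71 RPKM in KI sham and 2.96, 3.92 and 3.85 RPKM in KI TAC hearts, without overlap. In WT hearts it was 5.38, 9.05 and 9.57 RPKM after sham and 4.65, 5.69 and 6.87 RPKM after TAC, with overlap at WT sham replicate 1. The log2 fold change in KI hearts was −0.91 ± 0.22 (adjusted p = 0.00999). It was −0.80 and still called with median-ratio scaling, and without KI sham replicate 3 the call was lost at −0.82 (adjusted p = 0.0518). The WT value was −0.40 ± 0.22 (adjusted p = 0.262). The median of all genes was −0.10 in KI hearts and 0.04 in WT hearts, and median-ratio scaling brought both to within 0.010 of 0. Over both genotypes the mean difference of Lifr was −0.65, with an exact two-sided permutation p of 0.015.

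The ratio of the 2 neighbouring receptor genes, taken within each heart, differed between sham and TAC hearts. This ratio and the next were chosen after the values were seen and were not tested. In sham hearts the level of Osmr was 0.185 to 0.210 times that of Lifr in WT and 0.198 to 0.248 times in KI mice. After TAC it was 1.49, 1.85 and 0.840 times the level of Lifr in WT and 2.92, 1.99 and 2.15 times in KI hearts, so that Osmr exceeded Lifr in all TAC hearts except WT TAC replicate 10. The level of Socs3 was 0.165 to 0.278 times that of Stat3 in the 6 sham hearts. It was 1.19, 1.48 and 0.617 times that of Stat3 in WT TAC and 2.94, 1.93 and 0.902 times in KI TAC hearts, highest in KI TAC replicate 5 and lowest in WT TAC replicate 10.

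**Figure D3:**
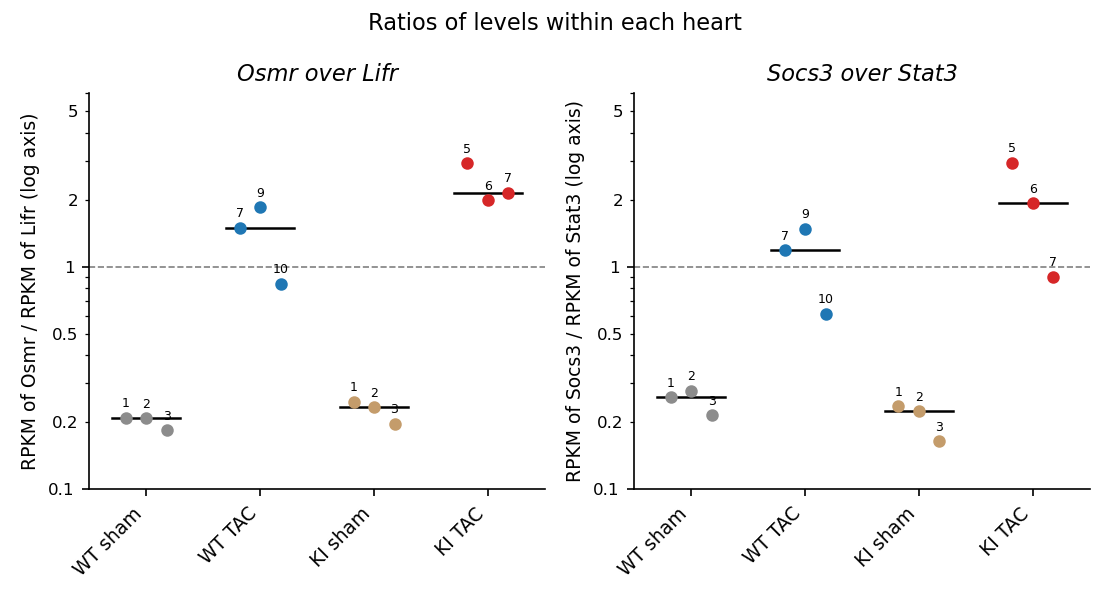
Ratios of RPKM within each heart (log axes) of Osmr to Lifr and of Socs3 to Stat3, with a dashed line at 1. Points are hearts with their replicate number and bars are group medians. All sham hearts lie between 0.165 and 0.278 in both ratios, and all TAC hearts lie at 0.617 or more.

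The ligand Lif (leukemia inhibitory factor, ENSMUSG00000034394, chr11:4257557-4272514, plus strand) was scarcely detected in sham hearts and was measured from few reads there. WT sham hearts held 18, 7 and 5 reads (0.129, 0.0680 and 0.0470 RPKM) and WT TAC hearts 138, 115 and 95 reads (1.23, 0.893 and 0.836 RPKM). KI sham hearts held 26, 9 and 8 reads (0.245, 0.0686 and 0.0567 RPKM) and KI TAC hearts 254, 151 and 101 reads (1.93, 1.10 and 0.736 RPKM). The groups did not overlap in either genotype. The ratios of group means were 12.1 in WT and 10.2 in KI hearts, whereas the log2 fold changes on the log2(RPKM + 1) scale were 0.87 ± 0.17 (adjusted p = 0.00490) and 0.97 ± 0.17 (adjusted p = 0.00123), since the added 1 RPKM compresses changes at low levels. With a pseudocount of 0.1 RPKM they were 2.59 and 2.60.

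Il6st, which encodes gp130 (ENSMUSG00000021756, chr13:112464070-112510086, plus strand), was abundant and was not called in either genotype. WT hearts held 22.6, 20.9 and 27.5 RPKM after sham and 29.95, 28.1 and 31.1 RPKM after TAC. KI hearts held 24.2, 18.0 and 23.3 RPKM after sham and 32.8, 23.2 and 21.4 RPKM after TAC. WT TAC hearts were all above WT sham hearts and KI TAC hearts overlapped KI sham hearts. The log2 fold change was 0.33 (95% confidence interval −0.09 to 0.75, adjusted p = 0.299) in WT and 0.22 (−0.20 to 0.64, adjusted p = 0.450) in KI hearts. Il6ra, the IL-6-binding chain (ENSMUSG00000027947, chr3:89864059-89913196, minus strand), stayed between 0.547 and 1.64 RPKM in the 12 hearts, from 152 to 430 reads. Its log2 fold change was 0.08 (−0.29 to 0.46, adjusted p = 0.793) in WT and 0.28 (−0.10 to 0.65, adjusted p = 0.267) in KI hearts. KI TAC hearts were nonetheless all above KI sham hearts in Il6ra, at 1.64, 1.23 and 1.56 against 1.03, 0.939 and 1.16 RPKM. Such complete separation upward was found in 5 of 8 members in each genotype, where 20.0% of all genes were so separated in WT and 13.6% in KI hearts. Without Lif, which passed the filter only through TAC hearts, it was found in 4 of 7 members in each.

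Pim1, a serine/threonine kinase gene commonly used as a STAT3 target (ENSMUSG00000024014, chr17:29490753-29496112, plus strand), was not called in either genotype. It was 91.4, 65.3 and 41.4 RPKM in WT hearts after sham and 105, 126 and 46.4 RPKM after TAC. It was 77.8, 73.3 and 64.2 RPKM in KI sham and 450, 60.2 and 78.2 RPKM in KI TAC hearts. The groups overlapped in both genotypes, and KI TAC replicate 5 alone held 45877 reads. The log2 fold change was 0.43 ± 0.59 (adjusted p = 0.669) in WT and 0.84 ± 0.59 (adjusted p = 0.323) in KI hearts, and without KI TAC replicate 5 the latter was −0.06. KI TAC replicate 5 was also the highest of the 12 hearts in Lif, Il6st, Il6ra and Socs3, but not in Stat3, in which KI TAC replicate 7 was highest.

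Whether the knock-in changed the axis was addressed by comparing the genotypes. Between KI TAC and WT TAC hearts 0 of 8 members were called, where 11.0% of all genes were called, and 1 member, Lifr, had an unadjusted p under 0.05 (limma). The share of called genes that were higher in KI TAC hearts was 26.4%, and 51.6% with median-ratio scaling and 46.0% with quantile normalization. Lifr was lower in every KI TAC heart than in every WT TAC heart, with a log2 fold change of −0.55 (−1.03 to −0.08, adjusted p = 0.115 with limma). Socs3 was 0.69 higher (−0.03 to 1.41, adjusted p = 0.183), 0.30 without WT TAC replicate 10 and 0.37 without KI TAC replicate 5. For Osmr the interval was −0.32 to 0.54, for Stat3 −0.44 to 0.36, for Lif −0.20 to 0.51, for Il6st −0.64 to 0.20, for Il6ra −0.15 to 0.60 and for Pim1 −0.67 to 1.86, and differences within these bounds remained possible with 3 hearts a group. The difference of Pim1 was 0.59, and −0.31 without KI TAC replicate 5. The median of all genes in this comparison was −0.12, and about 0 with median-ratio scaling, under which Stat3 turned from −0.04 to 0.11.

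Between KI sham and WT sham hearts 0 of 8 members were called (0.0178% of all genes, 2 genes), and 0 had an unadjusted p under 0.05. The largest difference in this comparison was 0.19 (−1.08 to 1.45), in Pim1. The interaction of genotype and surgery, which tests whether TAC changed a gene by a different amount in KI than in WT hearts, called 0 members and 0% of all genes, with 0 members and 1668 of all genes at an unadjusted p under 0.05. The interaction was 0.80 (−0.21 to 1.82, adjusted p = 0.434) for Socs3 and −0.51 (−1.19 to 0.16, adjusted p = 0.448) for Lifr, and over the alternatives it was 0.41 to 1.10 for Socs3, lowest without WT TAC replicate 10 and 0.48 without KI TAC replicate 5, and −0.69 to −0.28 for Lifr, nearest to 0 without WT sham replicate 1. The larger values of both genes in KI hearts were not shown to differ from those in WT hearts. limma-voom on the recovered reads also called 0 members in each of these 3 comparisons.

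The rest of the pathway was described with 41 further genes, of which 34 were in the table and all were tested. In WT hearts 4 of the 34 were called higher and 1 lower, with a median log2 fold change of 0.21 beside 0.04 over all genes. These 5 calls were 14.7% of the list, near the 11.6% of all genes called. In KI hearts 4 were called higher and 8 lower, or 35.3% beside 23.3% of all genes, with a median of −0.10, the same as over all genes. In each genotype 1 of the genes called higher had passed the filter only through TAC hearts, and without it 3 of 33 were higher. With median-ratio scaling the KI split was 8 higher and 7 lower, and with quantile normalization 7 higher and 8 lower. Without WT sham replicate 2 the 5 WT calls became 3.

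Among the other ligands, Ctf1, which encodes cardiotrophin-1, a ligand of the Lifr-gp130 pair, was called lower in both, from 3.07 to 4.13 RPKM down to 1.55 to 2.13 RPKM in WT (−0.72, adjusted p = 0.0127) and from 3.05 to 4.78 RPKM down to 1.62 to 1.99 RPKM in KI hearts (−0.80, adjusted p = 0.00369). The WT call of Ctf1 was lost without WT sham replicate 2 (adjusted p = 0.0594). Lif and Ctf1, which use the same receptor pair, thus moved in opposite directions, with Lif at 0.0135 to 0.0802 times the level of Ctf1 in sham and at 0.419 to 0.968 times in TAC hearts. This ratio was also chosen after the values were seen and was not tested. In sham hearts it rested on 5 to 26 reads of Lif. Lif passed the filter only through TAC hearts, so its call could only be an increase.

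Of the Janus kinases, which carry the signal from gp130, Tyk2 was called lower in KI hearts (−0.98, adjusted p = 0.00144) and Jak1, Jak2 and Jak3 were not called in either genotype. Of 5 other STAT genes tested, 0 were called in WT hearts, and in KI hearts Stat5a (−1.41, adjusted p = 0.00111) and Stat5b (−0.97, adjusted p = 0.00103) were called lower while Stat3 was higher. Stat5a was 11.4, 8.74 and 9.65 RPKM in KI sham and 2.30, 2.39 and 5.09 RPKM in KI TAC hearts. In WT hearts Stat5a (−0.58, adjusted p = 0.129) and Stat5b (−0.49, adjusted p = 0.0615) lay below sham in every TAC heart without passing the threshold. Gab1, an adaptor that links gp130 to the ERK and PI3K branches, was called lower in KI hearts (−1.05, adjusted p = 0.00111).

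The other negative regulators numbered 14, of which 3 were called higher in WT hearts, and 3 higher and 1 lower in KI hearts. Of all genes 6.96% were called higher and 4.60% lower in WT hearts. In KI hearts 8.57% of all genes were called higher, 14.7% lower and 23.3% in either direction. Ptpn2, a phosphatase of JAK and STAT proteins, was called higher in both genotypes (0.91, adjusted p = 0.00349, and 0.78, adjusted p = 0.00387). Ptpn6, which encodes the phosphatase SHP-1 of blood cells, was called higher in WT hearts (1.04, adjusted p = 0.00110), at 4.36, 3.39 and 4.69 RPKM after TAC against 1.83, 1.24 and 1.40 RPKM after sham. Its KI value was 0.29 (adjusted p = 0.190). In WT hearts the call of Ptpn1 (0.59, adjusted p = 0.0353) was lost without any 1 of the 3 WT sham hearts, WT TAC replicates 7 or 9 or KI sham replicate 3, and with median-ratio scaling. Ptpn1 (0.52), Socs2 (0.76), Pias4 (−0.78) and the receptor gene Il11ra1 (−0.58) passed the threshold in KI hearts by a narrow margin, and each of these 4 calls was lost without KI sham replicate 2 or without KI sham replicate 3, with an adjusted p of up to 0.139, and that of Pias4 also with median-ratio scaling.

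**Figure D4:**
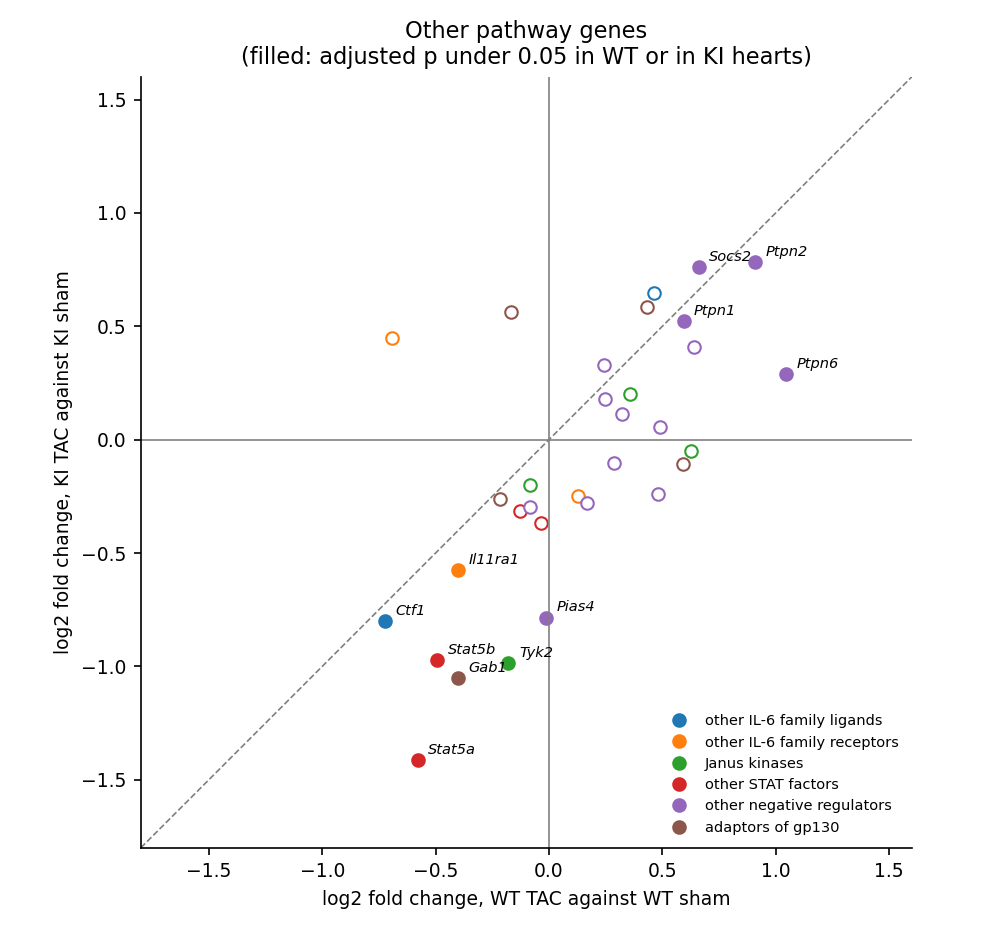
Log2 fold changes after TAC of the other pathway genes reported here, WT hearts on the x axis and KI hearts on the y axis, coloured by role. Filled and named points had an adjusted p under 0.05 in at least 1 genotype, and the dashed line marks equal change. Stat5a is lowest at −1.41 in KI hearts, and Ptpn6 is farthest right at 1.04 in WT hearts.

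Between KI TAC and WT TAC hearts 5 of these 34 genes (14.7%) were called, all lower in KI hearts, near the 11.0% of all genes called, of which 914 of 1242 were lower, with a median log2 fold change of −0.26 beside −0.12 over all genes. They were Tyk2 (−0.80), Sos1 (−0.71), Ptpn6 (−0.67), Gab1 (−0.67) and Stat5b (−0.54). Leaving out single hearts ended each of these calls in some fits, while the values kept their sign. They were −0.96 to −0.72 for Tyk2, −0.83 to −0.62 for Sos1, −0.79 to −0.60 for Ptpn6, −0.80 to −0.55 for Gab1 and −0.63 to −0.47 for Stat5b. The calls over all genes fell from 1242 to 186 without KI TAC replicate 6 and to 162 without WT TAC replicate 7. Of the 5, 0 stayed without KI TAC replicate 6 or without WT TAC replicate 7, 2 without KI TAC replicate 5 or WT TAC replicate 10, and 3 without WT sham replicate 2, WT sham replicate 3 or KI sham replicate 3. Without KI TAC replicate 7 all 5 stayed and 10 genes of the list were called. With either scaling 3 were called, and 0 when only the 2 groups compared were fitted. In the interaction 0 of 34 were called by limma and by limma-voom, with 9 at an unadjusted p under 0.05 by limma and 10 by limma-voom, and between the sham groups 0 were called, with 0 at an unadjusted p under 0.05 by either. Over all 11240 genes the interaction had 1668 at an unadjusted p under 0.05 by limma.

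Genes known to respond to STAT3, 26 in number and also responsive to other inputs, were all in the table, and 25 were tested. In WT hearts 13 (52.0%) were called higher, beside 6.96% of all genes, and 0 lower, with a median log2 fold change of 1.15. In KI hearts 19 (76.0%) were called higher, beside 8.57% of all genes, and 0 lower, with a median of 1.91. Ccl2, Hp and Lcn2 passed the filter only through TAC hearts and could only be called higher, and without them 10 of 22 were called higher in WT hearts, with a median of 1.01, and 16 of 22 in KI hearts, with a median of 1.89. When single hearts were left out, 11 to 14 genes were called in WT and 16 to 19 in KI hearts. The list was written with the response of these hearts known, so its direction is a description.

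In WT hearts the largest increases of the list on the log2(RPKM + 1) scale were in Timp1, an inhibitor of metalloproteinases (4.86, adjusted p = 4.69e-08), Serpina3n, an acute-phase serine protease inhibitor (3.56, adjusted p = 5.70e-05), and Fgl2, a fibrinogen-like protein (3.12, adjusted p = 0.00135). As ratios of group means Timp1 (91.7) was followed by Lcn2 (23.9) and Ccl2 (22.6), ahead of Serpina3n (14.8) and Fgl2 (11.3). Timp1 went from 0.666, 0.333 and 0.369 RPKM to 52.7, 33.1 and 39.7 RPKM. In KI hearts the largest on that scale were in the metallothionein Mt2 (5.06, adjusted p = 7.21e-05), Serpina3n (4.30, adjusted p = 1.07e-05) and Lcn2, which encodes the iron-carrier-binding protein lipocalin-2 (4.09, adjusted p = 0.000181). As ratios of means Lcn2 (57.4) was ahead of Mt2 (36.3) there, also without KI TAC replicate 5 (77.3 and 33.8), whereas the ratio of Fos (65.5) was 12.9 without that heart. Mt2 went from 2.64, 9.75 and 5.40 RPKM in KI sham to 246, 254 and 146 RPKM in KI TAC hearts. The hearts differed in which genes they raised most. KI TAC replicate 5, the heart with the most Pim1, Lif and Socs3, also had the most Fos (200 RPKM) and Myc (86.8 RPKM), whereas KI TAC replicate 7, with the most Stat3, had the most Lcn2 (62.1 RPKM), Serpina3n (128 RPKM) and Lrg1 (716 RPKM). These genes were chosen after their values were seen.

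**Figure D5:**
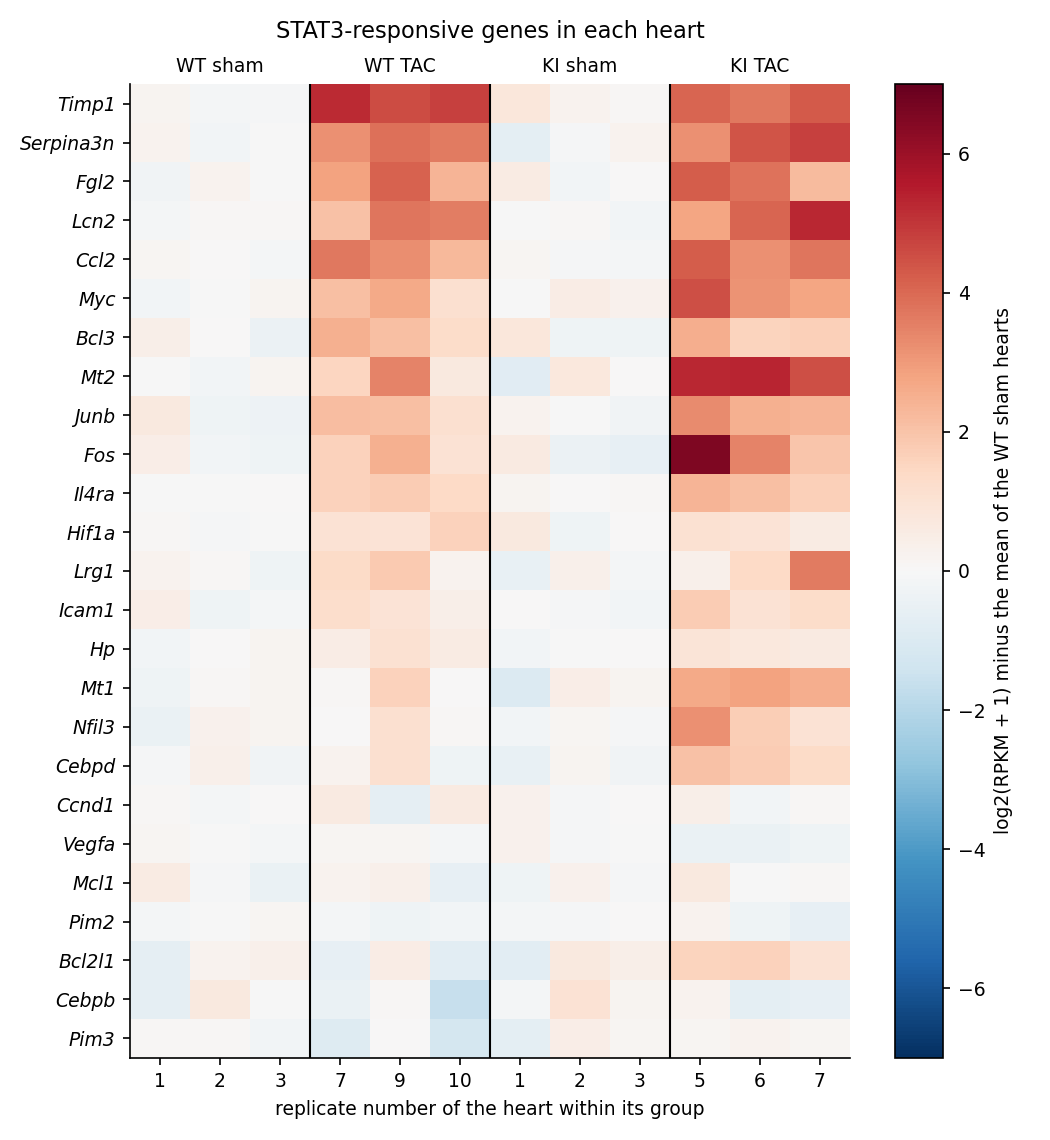
Log2(RPKM + 1) of the 25 tested STAT3-responsive genes (rows) in each heart (columns, with replicate numbers), minus the mean of the WT sham hearts. Red is higher and blue lower, and genes are ordered by their change in WT hearts. The upper rows rise in all 6 TAC hearts, and Mt2, Mt1, Nfil3, Cebpd and Bcl2l1 are higher in the KI TAC group.

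Between KI TAC and WT TAC hearts 6 of the 25 were called higher and 1 lower, together 28.0% beside 11.0% of all genes. Mt2 (3.16, adjusted p = 0.00638), Mt1 (2.11, adjusted p = 0.00940) and Bcl2l1 (1.64, adjusted p = 0.0231) had the largest values of those called on the log2(RPKM + 1) scale, and Timp1 was lower in KI hearts (−0.85, adjusted p = 0.0301). Cebpd, Myc and Nfil3, named after their values were seen, were the other 3. Bcl2l1 encodes Bcl-xL, the protein altered in KI mice, and stood at 35.8, 37.0 and 24.5 RPKM in KI TAC against 7.50, 17.2 and 6.59 RPKM in WT TAC hearts. Its change after TAC in KI hearts was 1.26 (adjusted p = 0.0354), a call lost without KI sham replicate 1 or 3 or KI TAC replicate 5 or 6. The call of Mt2 was the only 1 of the 7 that held when each heart was left out in turn. Without KI TAC replicate 6 or without WT TAC replicate 7 it alone was left, and 2 of the 7 stayed without WT TAC replicate 10 or without KI TAC replicate 5. The call of Timp1 was also lost with median-ratio scaling. In the interaction 0 of 25 were called by limma and by limma-voom, with 6 at an unadjusted p under 0.05 by each, and between the sham groups 0 were called, with 0 at an unadjusted p under 0.05 by either. By limma 1668 of all 11240 genes had an unadjusted p under 0.05 in the interaction.

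Markers of several other cell types differed between the sham and TAC hearts beside these genes. Of 6 neutrophil markers 3 were in the table, and S100a8, S100a9 and Csf3r together summed to 0.395 to 1.27 RPKM in sham hearts, 3.69 to 9.87 RPKM in WT TAC and 4.18 to 20.3 RPKM in KI TAC hearts. Of these 3, S100a9 and Csf3r were called higher in WT hearts and all 3 in KI hearts, and since all 3 passed the filter only through TAC hearts they could only be called higher. Without WT sham replicate 3 or without WT TAC replicate 9, 0 were called in WT hearts, and without WT sham replicate 2, 1 was. Within each TAC group the order of the hearts in this sum was that of their Socs3 level, with WT TAC replicate 9 first and replicate 10 last, and KI TAC replicate 5 first and replicate 7 last. The 7 macrophage markers, of which Cd68, Lyz2 and Adgre1 were called higher in WT hearts and Csf1r lower in KI hearts, summed to 102 to 163 RPKM in WT sham, 174 to 278 in WT TAC, 111 to 136 in KI sham and 141 to 167 RPKM in KI TAC hearts. WT TAC replicate 10, lowest of the WT TAC hearts in Socs3 and Osmr, was highest in macrophage markers (278 RPKM) and in the 7 fibroblast markers (760 RPKM against 147 and 320 RPKM). Without WT TAC replicate 10, WT sham replicate 2 or WT sham replicate 3, 1 macrophage marker was called in WT hearts, and the KI call of Csf1r was lost with either scaling and without any 1 of 9 hearts. With either scaling 3 macrophage markers were called higher and 0 lower in KI hearts. The 5 erythroid markers summed to 145 to 171 RPKM in WT sham against 74.8 to 114 RPKM in WT TAC hearts, without overlap, and to 134 to 244 against 97.7 to 257 RPKM in KI hearts, and 0 of them were called with surgery in either genotype. Of the fibroblast markers 0 were called in WT hearts, and Lum was called lower in KI hearts, a call lost with either scaling and without any 1 of 10 hearts. Of the cardiomyocyte markers Myh6 was called lower in WT hearts (−1.15), a call lost without WT TAC replicate 7 and with quantile normalization. The calls of Pln in KI hearts (−0.93) and of Tnni3 and Myl2 between the TAC groups (0.95 and 0.86) were lost without any 1 of 5, 7 and 9 hearts and with 1 of the scalings each. The 6 endothelial markers summed to 261 to 385 RPKM over all hearts, and 0 of them were called with surgery in either genotype. Of 6 smooth muscle and pericyte markers Cnn1 was called higher in WT hearts (1.16), and of the mesothelial markers 0 were called. Between the TAC groups Adgre1 (−1.15), Cnn1 (−0.98) and Csf1r (−0.91) were called lower in KI hearts, none of them without KI TAC replicate 6, and Cnn1 also not without WT TAC replicate 7 or 10. The part of blood cells and fibroblasts in the changes of the members was not tested. Markers of lymphocytes and adipocytes were not analysed here.

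Across the 12 hearts the genes most like each member were ranked by the root mean square difference of their log2(RPKM + 1) profiles, each centred on its mean, as a description in which all points share their libraries. Socs3 was nearest to Uck2 (0.27), Ccl2 (0.29) and Tnfrsf12a (0.35), against an SD of its own profile of 1.72. Osmr (SD 0.90) was nearest to Eif1a (0.19), Slc38a2 (0.20) and Rrp12 (0.23), and Stat3 (SD 0.51) to Adgrd1 (0.12), Zyx (0.13) and Ccr1 (0.15). Lif (SD 0.50) was nearest to Mthfd2, Bag2 and Pwwp3b (0.12 to 0.13), and Lifr (SD 0.45) to Nfia, Klf12 and Tpcn1 (0.14 to 0.16). Pim1 (SD 0.84) had no close match, with Nle1 nearest at 0.32, followed by Jun (0.40) and Spry2 (0.42). On this scale the profiles of Il6st and Il6ra were nearly flat (SD 0.24 and 0.22), as were those of the genes nearest to them (0.11 to 0.13). These were Daam1, Pakap and Tbc1d1 for Il6st and Phactr4, St8sia6 and Luc7l for Il6ra. The added 1 RPKM compresses changes at low levels, and Il6ra lay between 0.547 and 1.64 RPKM. Likeness on this scale is therefore not an equal fold change. The ratio of group means of Lif in WT hearts was 12.1. Its near match Bag2 stood at 11.8 to 14.6 RPKM in WT sham and at 22.5 to 26.8 RPKM in WT TAC hearts.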

How the data were processed

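Poly(A)-selected, strand-specific cDNA libraries were sequenced as single reads. Per the submitters' processing notes and methods, the authors trimmed reads with Trimmomatic 0.39, aligned them to GRCm38 with HISAT2 2.2.1 and counted them on genes with HTSeq 0.6.1. Whether counting used strand is not given in the sources used here. No source used here states the unit of the deposited table, and its values were recognized as RPKM made by the authors: multiplied by GENCODE M21 exon lengths, 95.4% to 96.8% of low values were within 0.02 of a whole read, which gave each library's depth. The 11240 genes that reached 1 RPKM in 3 or more hearts were fitted on log2(RPKM + 1) with limma 3.58.1 in R 4.3.3 (4 groups, trend). Two-sided exact permutation tests exchanged TAC and sham within genotypes. A test of 3 against 3 cannot go below 0.1. Each heart is 1 mouse.

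The members and gene lists were chosen with earlier results of these data known. Named are all members, up to 3 called genes per list and comparison by size, and the 3 genes most like each member. Promoters came from RefSeq. Alternatives were other pseudocounts, filters, scalings, limma-voom on the recovered reads, fits of the compared groups alone, and leaving out each heart. Counts of the gene lists without single hearts or with other scalings were added after seeing the data. The model was tested on simulated data. Single values of some pathway genes are not reported here, although the counts over the list include them.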

Additional observations from a re-analysis of the deposited data

How the results depend on the processing

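Of 750 alternative values of single members, 716 kept their direction and side of the threshold, 33 changed sign, all in differences that had not passed the test, and 1 lost its call, that of Lifr in KI hearts. Leaving out single hearts gave −0.10 to 0.23 for Il6ra in WT hearts and −0.059 to 1.38 for Pim1 in KI hearts after TAC. Between KI TAC and WT TAC hearts it gave −0.054 to 0.32 for Lif, −0.054 to 0.33 for Osmr, −0.22 to 0.076 for Stat3 and −0.31 to 1.13 for Pim1. Between the sham groups it gave −0.024 to 0.094 for Lif, −0.19 to 0.016 for Il6st, −0.15 to 0.18 for Il6ra, −0.27 to 0.14 for Lifr, −0.063 to 0.18 for Osmr, −0.29 to 0.0099 for Socs3 and −0.11 to 0.45 for Pim1. In the interaction it gave −0.11 to 0.27 for Lif, −0.29 to 0.0093 for Il6st, −0.13 to 0.26 for Osmr and −0.49 to 0.95 for Pim1. The mean change of Il6st over both genotypes was 0.18 to 0.33, and its exact permutation p fell to 0.035 without KI TAC replicate 7 and to 0.04 without WT sham replicate 3. Median-ratio scaling gave 0.11 for Stat3 between KI TAC and WT TAC hearts and 0.054 for Il6st in the interaction. Quantile normalization gave −0.0071 for Il6ra between the sham groups. limma-voom on the recovered reads gave −0.060 for Lif and −0.00019 for Osmr in the interaction, and called 1272 genes in WT, 2717 in KI hearts and 1345 between the TAC groups. The cause of these changes was not tested. Without Lif, which a filter of 1 RPKM in all mice left out, 3 members were called in WT and 4 in KI hearts.

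Over all genes, the calls between KI TAC and WT TAC hearts fell from 1242 to 216 when the fit held only these groups. Across all settings they numbered 596 to 1560 in WT hearts, 1453 to 2981 in KI hearts, 162 to 1822 between the TAC groups and 0 to 240 in the interaction. The sham groups share the replicate numbers 1 to 3, whose deviations correlated at −0.23, −0.30 and 0.44, so the numbers do not pair the mice. A fit of the sham groups with a replicate block called 0 members and 0 genes, against 2 genes without it. Lif in sham hearts rested on 5 to 26 reads, which limits its fold change.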
